A study of Oryza sativa with 4 samples.

Results

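The PR1-like genes of rice chromosome 7 were described in root tip protoplasts (cells whose wall has been digested away) of 93-11 (the indica cultivar) and Nipponbare (the japonica cultivar). The set was given as 10 gene identifiers, chosen by family name and by the RPM values of these libraries, which were known at the time, including their difference between the cultivars. The tables hold identifiers without gene names, so the label PR1-like could not be checked against the data. Of the 10 identifiers, 4 were found among the 20567 that either table lists. LOC_Os07g03279 and LOC_Os07g03409 were listed for 93-11 only, LOC_Os07g03580 for both cultivars and LOC_Os07g03710 for Nipponbare only. The other 6, LOC_Os07g03288, LOC_Os07g03319, LOC_Os07g03368, LOC_Os07g03377, LOC_Os07g03499 and LOC_Os07g03730, were in neither table used here and are not analysed here. Across all identifiers 8576 (41.7%) were in both tables, 4910 (23.9%) in that of 93-11 only and 7081 (34.4%) in that of Nipponbare only. No source used here states the rule by which a gene is listed, so a gene left out of a table is not taken as silent.

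Both cultivars were handled alike per the labels: seedlings grown for 3 days, 5 mm tips cut from 800 crown roots, RNA of the released protoplasts, and 2 libraries per cultivar. The labels do not state that the 2 libraries of each cultivar stem from different preparations, so their spread, and every p-value built on it, may be technical. Walls were digested for both cultivars and no undigested roots were among the samples, so levels in intact roots were not measured.

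Pathogenesis-related protein 1 (PR1) is a small protein that plants secrete into the space between cells, and it belongs to the SCP or CAP family of extracellular proteins found from plants to animals. In plants its genes are commonly read as markers of defence, since many are induced by pathogens and by the hormone salicylate. In rice several PR1 genes also respond to wounding and jasmonate. Genes of this family often lie side by side, and such neighbours can be similar enough in sequence to share reads. How reads that match several genes were counted is not stated in any source used here, and the levels of single members are uncertain to that extent.

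Library totals implied by the values ran from 21504426 to 21504715 reads, and the listed genes held 42.3% to 55.7% of them. Levels are in RPM, reads scaled to a total of 1000000, and are not divided by gene length, so they are not compared between genes. The libraries of a cultivar correlated at 0.996 in 93-11 and 0.998 in Nipponbare (Pearson, log2(RPM + 1), across the 8576 shared genes, which are not replicates). Between cultivars the same measure was 0.452 to 0.457. Lost decimal points were restored so as to bring the 2 libraries of a cultivar closest together, as described below. That choice raised the reads of 964 genes in 93-11 and 822 in Nipponbare, so agreement within a cultivar is in part built in. Of 9 root tip genes taken as markers, all were in at least 1 table, and the summed level of those listed was 257 and 265 RPM in 93-11, against 6.32 and 7.95 RPM in Nipponbare, where QHB and Lsi2 had 0 reads. Of 7 genes of green shoot tissue, the 3 listed summed to 6.0 and 6.70 RPM in 93-11, against 0.698 and 0.837 RPM in Nipponbare, where CAB1R and RBCS3 had 0 reads. These sums cover genes listed for 1 cultivar only as well, namely CASP1 in 93-11 and Lsi1 and RBCS4 in Nipponbare. For 2 root tip markers, PLT1 and FH1, and 5 green shoot genes, no RefSeq gene of that symbol was found to check the identifier. PLT1 alone held 115 and 119 RPM of the 93-11 sums.

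LOC_Os07g03279 was abundant in the 93-11 libraries, where it took 0.207% and 0.210% of the library totals. Its level was 2071 RPM in replicate 1 and 2102 RPM in replicate 2, from 44533 and 45194 reads. The 95% counting interval, exact for Poisson counts, was 2052 to 2090 RPM in replicate 1 and 2082 to 2121 RPM in replicate 2. The libraries differed by 1.48%, with a ratio of replicate 2 over replicate 1 of 1.015 and an exact binomial interval of 1.002 to 1.028. Genes of 93-11 with a read number within 2-fold of it, 28 in all, differed between the libraries by a median of 5.13%. The mean was 2086 ± 21.7 RPM (SD, n = 2), and the gene has no Nipponbare value to set it against.

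LOC_Os07g03409, the other member listed for 93-11 only, had 24.3 RPM in replicate 1 and 27.5 RPM in replicate 2, from 522 and 591 reads. Its mean was 25.9 ± 2.27 RPM (SD, n = 2). The second library was 13.2% higher, with an exact binomial interval of the ratio from 1.005 to 1.276. The 2874 genes of 93-11 within 2-fold of its read number differed between the libraries by a median of 6.02%, so this member varied more between the 2 libraries than most genes counted as deeply. All intervals here cover counting error only, and they can be too narrow, because PCR copies are not independent molecules.

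LOC_Os07g03710 was listed for Nipponbare with 0 reads in both libraries. A count of 0 allows up to 0.140 RPM per library, the worth of 3 reads. This is an upper limit alone at 95%, not the end of an interval like those given above. No level is available for it in 93-11, so it is not known from these tables whether the cultivars differ in it.

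**Figure D1:**
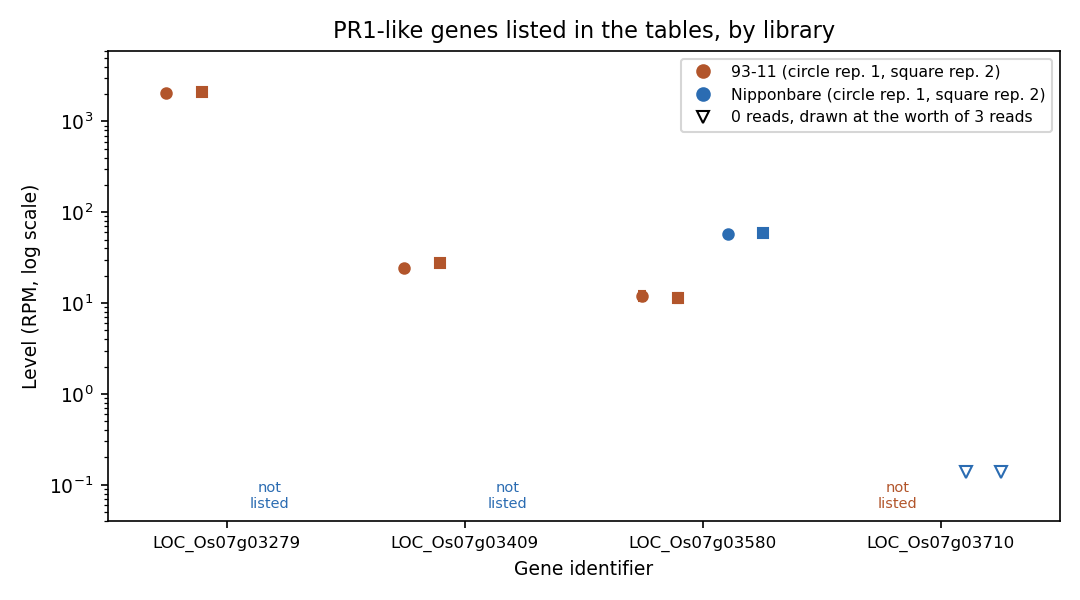
Level of the 4 listed PR1-like genes in each library, in RPM on a log axis, with 93-11 to the left of Nipponbare for each gene. Bars are 95% Poisson counting intervals, most of them smaller than the symbol, and open triangles mark 0 reads, drawn at 0.140 RPM. Only LOC_Os07g03580 has points for both cultivars, with the Nipponbare libraries above those of 93-11.

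LOC_Os07g03580 was the single member that could be compared between the cultivars, and its level was lower in 93-11. It had 12.0 and 11.5 RPM in the 93-11 libraries (259 and 247 reads), against 57.6 and 58.5 RPM in the Nipponbare libraries (1239 and 1259 reads). Each pair of libraries lay close together. The means were 11.8 ± 0.395 RPM in 93-11 and 58.1 ± 0.657 RPM in Nipponbare (SD, n = 2 each), a ratio of 0.203 for 93-11 over Nipponbare, or 4.94-fold higher in Nipponbare. Within 93-11 the ratio of replicate 2 over replicate 1 was 0.954 (exact binomial interval 0.798 to 1.140), and within Nipponbare it was 1.016 (0.939 to 1.100). Both intervals include 1, so the libraries of a cultivar did not differ detectably in this gene at this depth.

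The difference of LOC_Os07g03580, 93-11 minus Nipponbare on the log2(RPM + 1) scale, was -2.21 (SE 0.05). That scale understates the change of low genes. Limma, fitted to the 7269 shared genes that averaged 1 RPM or more, called this member higher in Nipponbare, as it did 37.9% of all genes tested, and it called 59.0% higher in 93-11. Since the member was chosen with this contrast known, the call is given as a description and nothing is read from it. The median difference over all tested genes was 1.44, and 1203 genes (16.5%) lay as far toward Nipponbare as this member or farther. A smaller share of cells that make the transcript and less transcript per cell cannot be told apart in bulk RNA. The build and annotation used for each cultivar's reads are not stated, so the part of alignment and counting in this difference was not tested. The summed root tip markers given above were higher in 93-11, where this gene was lower, and their part in this difference was not tested.

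**Figure D2:**
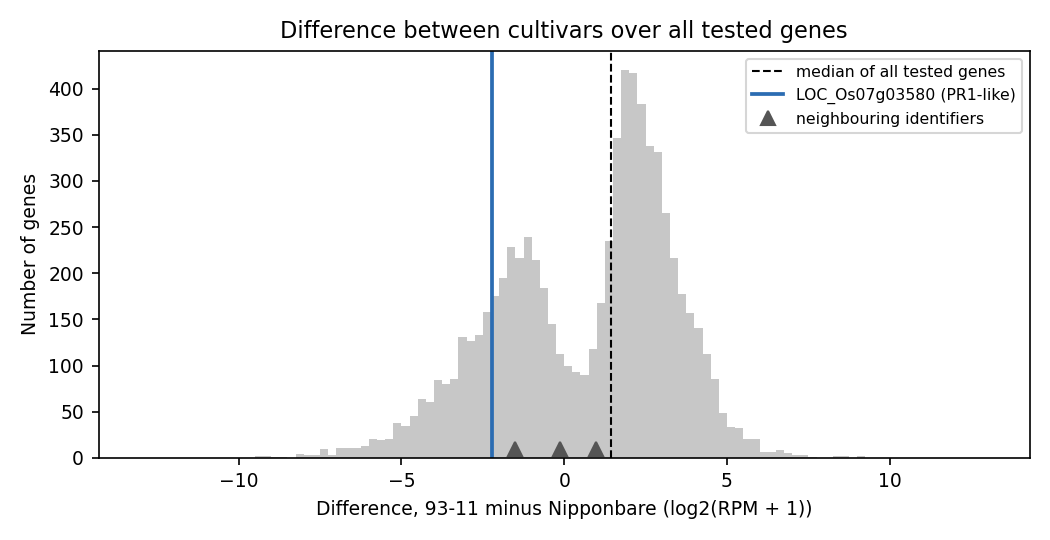
Number of tested genes by their difference, 93-11 minus Nipponbare, on the log2(RPM + 1) scale, in bins of equal width over the 7269 genes. The solid line is LOC_Os07g03580 at -2.21, the dashed line the median of all tested genes at 1.44, and the triangles are the 3 tested identifiers that neighbour the PR1-like genes.

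The decimal points of all values of 1 RPM and above had been lost in the tables and were restored from the whole number of reads each value must stand for. A gene whose true read numbers end in 0 in both libraries of a cultivar would be restored 10 times too low. For LOC_Os07g03580 that would mean 120 and 115 RPM in 93-11, above Nipponbare as restored, or 576 and 585 RPM in Nipponbare. The direction given above therefore rests on the restored reads of 93-11. For LOC_Os07g03409 the alternative levels would be 243 and 275 RPM in 93-11, and for LOC_Os07g03279 they would be 20709 and 21016 RPM. The 0 reads of LOC_Os07g03710 cannot be affected.

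Identifiers of this kind are numbered along the chromosome, which allowed the surroundings to be described without a genome. Between LOC_Os07g03200 and LOC_Os07g03800 the tables list 12 other identifiers, of which 4 were in both tables, 2 in that of 93-11 only and 6 in that of Nipponbare only, against 41.7%, 23.9% and 34.4% of all identifiers. The tables give no function for them. Of the 3 that were tested, 1 was called higher in 93-11 and 1 higher in Nipponbare, against the 59.0% and 37.9% of all genes, and their median difference was -0.12.

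LOC_Os07g03230 was at 11.1 and 10.6 RPM in the 93-11 libraries, against 32.7 and 32.6 RPM in the Nipponbare libraries, a difference of -1.50 (limma adjusted p = 7.78e-06). That difference became -0.01 with no call (limma adjusted p = 0.992) when the power of 10 was chosen in each library alone. That rule takes the lowest whole reads, so the 700 reads of Nipponbare replicate 2 became 10 times fewer, beside 703 in replicate 1. LOC_Os07g03750 went the other way, with 2.05 and 2.60 RPM in 93-11, against 0.744 and 0.605 RPM in Nipponbare. Its difference was 0.99 (limma adjusted p = 0.000483), but it was -0.17 with no call under quantile normalization (limma adjusted p = 0.202). LOC_Os07g03270, just before the first listed member in number, was at 3.91 and 3.86 RPM in 93-11, against 4.46 and 4.19 RPM in Nipponbare, and was not called (difference -0.12, limma adjusted p = 0.179). Median-ratio scaling (-0.56) and quantile normalization (-1.12) both gave a call of higher in Nipponbare. LOC_Os07g03700, just before LOC_Os07g03710, had 0 reads in both 93-11 libraries, against 19 and 4 reads in the Nipponbare libraries, and was too low to be tested.

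Among identifiers in a single table, LOC_Os07g03589 and LOC_Os07g03590 follow LOC_Os07g03580 directly and were listed for 93-11, at 26.9 ± 3.06 and 6.65 ± 0.658 RPM (SD, n = 2). LOC_Os07g03600 and LOC_Os07g03690 come next and were listed for Nipponbare, at 27.6 ± 0.559 and 2.28 ± 0.329 RPM (SD, n = 2).

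**Figure D3:**
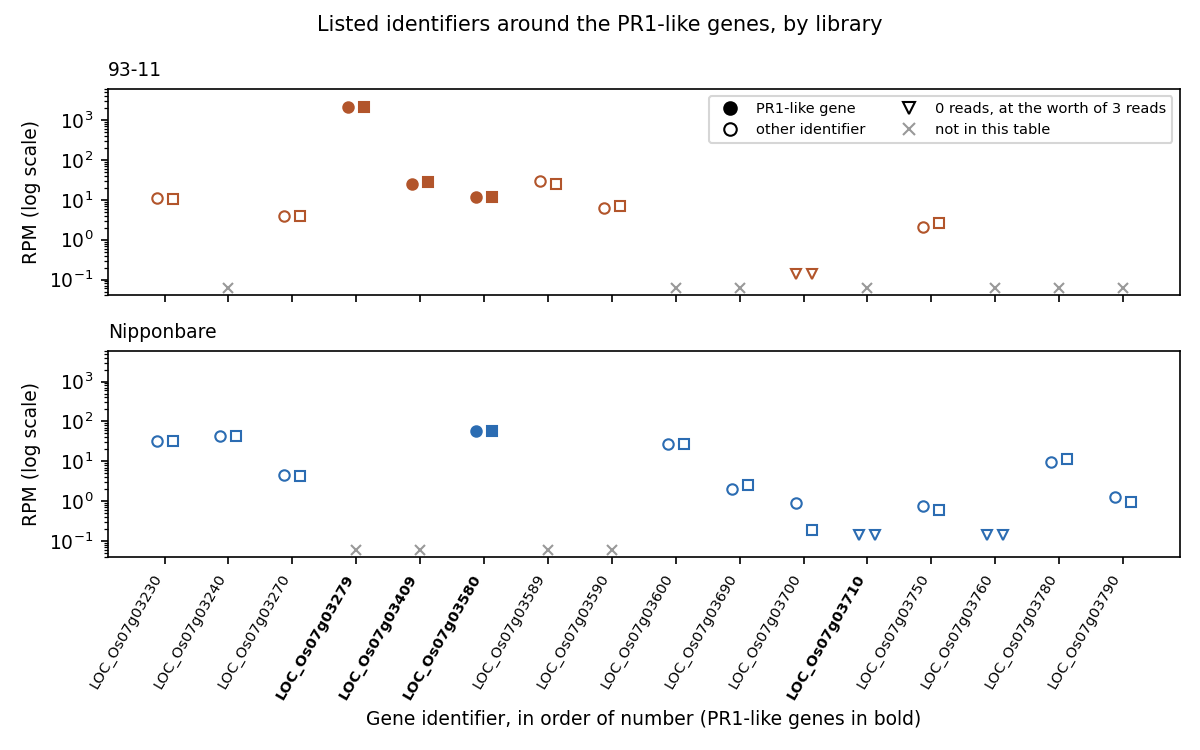
Level in each library (RPM, log axis) of the 16 identifiers listed between LOC_Os07g03200 and LOC_Os07g03800, in order of their number, with 93-11 above Nipponbare. Filled symbols are the PR1-like genes, open symbols the other identifiers, triangles 0 reads and crosses a gene that the table does not list. LOC_Os07g03580 is the single filled symbol with a level in both panels.

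The profile of LOC_Os07g03580 over the 4 libraries, centred on its own mean, was most like those of LOC_Os04g45480, LOC_Os06g05520 and LOC_Os08g03400 among the tested genes that are no members. Their Euclidean distances to it were 0.0213, 0.0283 and 0.0464 on the log2(RPM + 1) scale. LOC_Os06g05520 was at 33.3 and 32.1 RPM in the 93-11 libraries, against 152 and 158 RPM in the Nipponbare libraries. LOC_Os04g45480 had 0.140 and 0.0930 RPM in 93-11, against 4.09 and 4.28 RPM in Nipponbare. That gene and LOC_Os08g03400 (0.140 and 0.0465 RPM in 93-11, against 4.09 RPM in each Nipponbare library) were at or near the worth of 3 reads in 93-11, and their likeness rests on the added 1 RPM, which shrinks the differences of low genes. With 4 libraries in 2 groups, likeness reflects little besides the size of the cultivar difference on that scale.

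Defence genes outside the cluster were set beside the PR1-like member as a list of 20, with names from knowledge of the rice literature. For 12 of the 20 a RefSeq gene of that symbol lies on the chromosome the identifier names, and for 8 no such symbol was found. PR1b, a PR1 gene of chromosome 1, and EDS1, a regulator upstream of salicylate, were in neither table used here. Of the 11 tested, 9 were called higher in Nipponbare and 2 higher in 93-11, against 37.9% and 59.0% of all genes, and their median difference was -1.52, against 1.44 over all genes. With the power of 10 chosen in each library alone, 7 were called higher in Nipponbare and 2 higher in 93-11, and the calls of RSOsPR10 (difference -2.92, limma adjusted p = 0.140) and WRKY53 (-1.30, limma adjusted p = 0.500) were lost. There, read numbers ending in 0 became 10 times lower in replicate 1 alone. These were 42840 reads of RSOsPR10 in Nipponbare, and 270 (93-11) and 800 (Nipponbare) of WRKY53. The summed level of the listed defence genes was 581 and 614 RPM in the 93-11 libraries, against 6009 and 5968 RPM in the Nipponbare libraries, over sets that differ by table. Most of the Nipponbare sums came from the PR10 genes PBZ1 (2292 and 2287 RPM) and RSOsPR10 (1992 and 1942 RPM). JAZ11, not listed for 93-11, added 717 and 720 RPM. Of the list, 5 genes were listed for Nipponbare only and 2 for 93-11 only. The latter were the PR10 gene JIOsPR10 (86.4 and 94.3 RPM) and JAZ8 (8.88 and 10.2 RPM). The list was written with results of these data known, so its direction is no independent evidence. For the same reason the adjusted p-values of its genes, here and below, are given as description alone.

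The largest difference on the list was that of Cht1 (LOC_Os06g51060), a chitinase gene, whose product breaks down fungal cell walls. It averaged 1.000 ± 0.0329 RPM in 93-11 libraries, against 217 ± 6.51 RPM in those of Nipponbare (SD, n = 2 each), a difference of -6.77 (limma adjusted p = 7.28e-07). WRKY62 and WRKY76, transcription factor genes that restrain defence in rice, were 3.37-fold and 1.68-fold higher in Nipponbare. The PR10 genes PBZ1 and RSOsPR10, the jasmonate repressor genes JAZ9 and JAZ12, the transcription factor gene WRKY53 and the stress gene SNAC2 were called higher in Nipponbare as well, apart from the loss of RSOsPR10 and WRKY53 just given. NPR1 (LOC_Os01g09800), the salicylate co-activator through which PR1 genes are induced in Arabidopsis, went the other way from LOC_Os07g03580. It was at 34.8 RPM in 93-11 on average, against 13.5 RPM in Nipponbare, a difference of 1.30 (limma adjusted p = 2.41e-05). This difference lay below the median of 1.44 over all tested genes. WRKY45, a salicylate-pathway factor, was also called higher in 93-11 (0.56), but its difference was 0.03 with no call under median-ratio scaling (limma adjusted p = 0.620).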

How the data were processed

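Poly(A) RNA of root tip protoplasts was sequenced, 2 libraries per cultivar. HISAT2 2.0.4 and HTSeq 0.11.2 were used, per the submitters' processing notes, and the build and annotation are not stated in any source used here. For each cultivar the authors deposited a table of RPM values, whose decimal points at 1 RPM and above were lost.

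The smallest value of a library gave its total, and every value was then matched to whole reads. Where several powers of 10 gave whole reads, those that brought a cultivar's 2 libraries closest together were taken, and the lowest of equally close ones. Genes still apart by over 0.4 in log10 were left out (3 in 93-11, 1 in Nipponbare, none a member).

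Limma 3.58.1 (R 4.3.3; variance trend on) was fitted to log2(RPM + 1) of the shared genes averaging 1 RPM or more, adjusted by Benjamini-Hochberg over all of them and called at 0.05. Restoration and fit were also run on simulated data in which most genes did not differ, unlike the calls here. No conclusion is drawn from that run. Intervals used scipy 1.17.1. Alternatives were other pseudocounts, no filter, 2 scalings, a replicate block, restoration per library and leaving out each library.

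Named were all members, the neighbours in both tables and the tested defence genes. Neighbours in 1 table next to a member and some untested list genes were named after their values were seen. The members and lists were chosen with earlier results of these data known. The marker SHR1 was dropped because its identifier was in doubt.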

Additional observations from a re-analysis of the deposited data

How the results depend on the processing

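LOC_Os07g03580, the single tested member, stayed lower in 93-11 under all 11 alternatives, and limma called it in each that kept all libraries. Its difference of -2.21 was -2.29 with a pseudocount of 0.1, -1.91 with a pseudocount of 5, -2.72 after median-ratio scaling and -2.53 after quantile normalization. It ran from -2.24 to -2.18 when 1 library was left out in turn, where the lone library of a cultivar is assumed to vary like the others, and was unchanged with no filter and with restoration per library. No alternative took the 93-11 reads of LOC_Os07g03580 as 10 times higher, the case given above that would reverse the direction. Restoration per library takes the lowest whole reads, so it could not show that case. Scaling shifted the median of all tested genes from 1.44 to 1.03 (median-ratio) and 0.59 (quantile). With the replicate number as a block the difference was -2.21, with 4294 genes called higher in 93-11 and 2776 in Nipponbare, against 4290 and 2757 without it. The numbers share no source in the labels, and deviations of same-numbered libraries correlated at 0.0194 across genes. The counts of all genes called stayed within 1.5 times under every alternative that kept all libraries. With restoration per library, which does not draw a cultivar's libraries together, they were 3727 higher in 93-11 and 2232 in Nipponbare. With 2 libraries per cultivar, 1 member in both tables and decimal points restored, the data cannot describe the cluster as a whole.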
